A study of Homo sapiens with 18 samples.

Results

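The 9 genes described here encode proteins that are secreted and restrain WNT signalling, or belong to families that do: SFRP1, SFRP2, SFRP4, SFRP5 and FRZB (also called SFRP3) of the secreted Frizzled-related proteins, WIF1, and DKK2, DKK3 and DKK4 of the Dickkopf family. They were chosen by name, through probe sets whose platform annotation gives only that gene, and where a gene had several such probe sets the one with the highest mean was used. All 9 had a probe set, among 18417 genes with one. WNT proteins bind Frizzled receptors and the coreceptors LRP5 and LRP6, which stabilizes beta-catenin and switches on target genes. Secreted Frizzled-related proteins carry a cysteine-rich domain like that of the receptors and bind WNT, WIF1 binds WNT through a domain of its own, and DKK2 and DKK4 bind the coreceptors. DKK3 is a divergent member of its family whose part in WNT signalling is unsettled. In vertebrate embryos, antagonists of this kind mark the anterior neural plate, where WNT activity is low, whereas WNT activity is needed at the border of the plate, where the neural crest forms.

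Transcripts were measured on 18 Affymetrix Human Gene 1.0 ST arrays in H1, an established human embryonic stem cell line, so every culture has the same genetic background. The 6 groups of 3 arrays were embryoid bodies that had differentiated for 6 days in AggreWell plates and APEL medium, with a lentivirus carrying an shRNA against KBTBD8, with a lentivirus carrying a control shRNA, or without transduction, and pluripotent cells, grown feeder-free (Matrigel, mTeSR1 medium), under the same 3 treatments. KBTBD8 recruits substrates to a ubiquitin ligase built on CUL3 and has been described as needed for neural crest formation, and the comparisons ask how differentiation, transduction and loss of KBTBD8 change transcript levels. The labels give no shRNA sequence, and the design text calls the samples of a condition independent without saying whether they were separate cultures, so p-values here measure spread between these samples, which may be technical. All values are log2 intensities, and a difference of 1 is a factor of 2. Because the RNA came from whole cultures, fewer cells making a transcript and less transcript per cell cannot be told apart.

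The arrays labelled pluripotent KBTBD8 shRNA replicate 2 and embryoid body KBTBD8 shRNA replicate 2 did not lie with their groups. Across the 14209 tested genes the first correlated at 0.990 with the mean of the other KBTBD8 shRNA embryoid bodies and at 0.908 with the other pluripotent arrays of its own label. The second correlated at 0.993 with the pluripotent KBTBD8 shRNA arrays and at 0.914 with its own label. Each of the 16 remaining arrays correlated best with the arrays that share its label. Both were therefore left out of the fit and are given apart, and each result on the KBTBD8 shRNA rests on 2 arrays a group. For members that passed, the value from all 18 arrays as labelled is given too. For the marker lists and the other WNT pathway genes it is not given. KBTBD8 itself averaged 5.04 ± 0.12 (SD, n = 2) in pluripotent cells with its shRNA and 6.84 ± 0.39 (SD, n = 3) with the control shRNA (−1.79 ± 0.26 SE). On all 18 arrays as labelled this difference was −1.96 ± 0.25. The arrays set apart gave 4.55 (pluripotent label) and 5.12 (embryoid body label) for KBTBD8. The gene passed the intensity filter, set at each array's 40th percentile, only through control shRNA and untransduced pluripotent arrays. A difference from those arrays was therefore bound to follow, and it is given by its values without a p. In embryoid bodies KBTBD8 averaged 4.76 ± 0.15 (SD, n = 2) with its shRNA and 4.75 ± 0.31 (SD, n = 3) with the control shRNA (0.01 ± 0.26). All embryoid body arrays of the fit, untransduced ones included, gave 4.07 to 5.06, below the 40th percentile of their arrays. At that level these values cannot show whether the shRNA lowered KBTBD8 there. Of 10 markers of undifferentiated cells, 8 fell in embryoid bodies under each of the 3 treatments, and 0, 1 and 1 rose in untransduced, control shRNA and KBTBD8 shRNA cells. The median intensity of all probe sets was 5.97 to 6.12 on transduced arrays and 5.85 to 5.95 on untransduced ones, and its part in comparisons of these groups was not tested beyond quantile normalization. Among all genes tested, the median difference stayed within 0.05 of 0 in every comparison.

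The promoters of FRZB, SFRP2 and WIF1 are shown because these were the tested genes whose group means spanned more than 1 log2 unit. DKK4 spanned 1.28 but did not pass the intensity filter. Each sequence is the 250 bases before the annotated start from RefSeq on GRCh38.p14, read 5′ to 3′ on the minus strand, which is the strand of all 3 genes. They are chr2:182866638-182866887 for FRZB, chr4:153789084-153789333 for SFRP2 and chr12:65121306-65121555 for WIF1. The capitals mark ATTGG, which is CCAAT, the box bound by NF-Y, on the other strand.
FRZB: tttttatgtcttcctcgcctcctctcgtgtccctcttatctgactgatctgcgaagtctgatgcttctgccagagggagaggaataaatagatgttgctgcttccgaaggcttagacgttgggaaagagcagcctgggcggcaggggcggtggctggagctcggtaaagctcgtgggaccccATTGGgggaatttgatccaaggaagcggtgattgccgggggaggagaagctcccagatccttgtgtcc
SFRP2: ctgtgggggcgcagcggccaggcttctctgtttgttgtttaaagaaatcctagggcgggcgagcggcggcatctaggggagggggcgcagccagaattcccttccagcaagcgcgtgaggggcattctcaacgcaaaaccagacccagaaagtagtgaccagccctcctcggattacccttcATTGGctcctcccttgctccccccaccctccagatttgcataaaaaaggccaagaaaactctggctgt
WIF1: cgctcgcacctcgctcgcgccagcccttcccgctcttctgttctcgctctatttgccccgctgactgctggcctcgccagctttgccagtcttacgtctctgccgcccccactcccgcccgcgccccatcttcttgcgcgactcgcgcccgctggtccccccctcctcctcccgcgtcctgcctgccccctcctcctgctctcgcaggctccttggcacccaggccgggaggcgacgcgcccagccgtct
In both FRZB and SFRP2 the marked letters begin 68 bases before the start, and 32.0% of 35116 promoters of this length held CCAAT on either strand. The TATAAA letters, present in 10.7% of promoters, and CTTTGAA or CTTTGAT, which TCF and LEF factors bind and which were present in 5.94%, were in none of the 3 windows on either strand. FRZB and SFRP2 had 11 CpG pairs each, the median of all promoters, and WIF1 had 27. Of the 9 genes, 5 were found in the promoter table.

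FRZB, which is expressed in developing neural tissue and cartilage, had the widest span of group means among the 9 genes. KBTBD8 shRNA embryoid bodies gave 9.80 and 9.84, control shRNA embryoid bodies 7.95, 7.72 and 8.08, and untransduced embryoid bodies 10.08, 10.14 and 10.32. Pluripotent cells gave 5.46 and 6.00 with the KBTBD8 shRNA, 5.60, 5.82 and 5.71 with the control shRNA, and 7.02, 5.89 and 6.43 without transduction. All 8 embryoid body arrays thus lay above all 8 pluripotent arrays, and the 3 embryoid body groups did not overlap one another, with the control shRNA lowest. Among pluripotent cells the KBTBD8 shRNA arrays overlapped each of the other groups, whereas the control shRNA arrays lay below the untransduced ones without overlap. The arrays set apart gave 9.65 under the pluripotent label and 6.01 under the embryoid body label.

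SFRP1, an antagonist made by neuroepithelium, varied less. KBTBD8 shRNA embryoid bodies gave 9.75 and 9.82, control shRNA embryoid bodies 9.18, 9.27 and 9.22, and untransduced embryoid bodies 9.95, 9.94 and 10.03. Pluripotent cells gave 9.11 and 9.11 with the KBTBD8 shRNA, 9.54, 9.66 and 9.55 with the control shRNA, and 10.18, 10.00 and 9.95 without transduction. Both untransduced groups lay highest and overlapped, and under each of the 2 shRNAs the embryoid body and pluripotent arrays did not overlap, in opposite order. The arrays set apart gave 9.78 (pluripotent label) and 9.08 (embryoid body label).

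SFRP2, which is expressed in the neural tube and eye field of vertebrate embryos, was highest in untransduced embryoid bodies. Its levels were 9.52 and 9.62 in KBTBD8 shRNA embryoid bodies, 9.63, 9.57 and 9.49 in control shRNA embryoid bodies, and 11.04, 10.95 and 11.17 in untransduced ones. In pluripotent cells they were 9.94 and 9.96 with the KBTBD8 shRNA, 10.15, 10.14 and 10.15 with the control shRNA, and 10.61, 10.34 and 10.29 without transduction. Untransduced embryoid bodies lay above, and both shRNA embryoid body groups below, every pluripotent array. The 2 shRNA groups of embryoid bodies overlapped each other. The arrays set apart gave 9.33 (pluripotent label) and 10.00 (embryoid body label).

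WIF1, a WNT-binding antagonist, was dim throughout. Its levels were 4.78 and 4.56 in KBTBD8 shRNA embryoid bodies, 5.13, 5.41 and 4.99 in control shRNA embryoid bodies, and 4.23, 4.14 and 4.35 in untransduced ones. In pluripotent cells they were 5.79 and 5.69 with the KBTBD8 shRNA, 6.09, 6.26 and 6.31 with the control shRNA, and 4.48, 4.88 and 4.99 without transduction. It was brightest in pluripotent cells with either shRNA, with no overlap between these 2 groups or with any other group. These arrays lay at the 45.3 to 55.5 percentile of their array, and every other array in the fit lay at the 21.5 to 38.6 percentile. The gene passed the intensity filter, which asks for 3 arrays above the 40th percentile, only through those bright arrays, so a difference between those arrays and the rest was bound to follow. Where such groups are compared, WIF1 is given by its values and left out of the counts, with its adjusted p from the fit of all genes without the filter. The arrays set apart gave 4.72 (pluripotent label) and 5.99 (embryoid body label).

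SFRP5 and DKK3 moved little. SFRP5, known from anterior endoderm of frog and mouse embryos, ranged from 5.41 to 6.28 over the 16 arrays, and every neighbouring pair in the order of its group means overlapped. DKK3 gave 7.25 and 7.09 in KBTBD8 shRNA embryoid bodies, 6.84, 6.96 and 7.04 in control shRNA embryoid bodies and 6.59, 6.73 and 6.78 in untransduced ones, and 7.10 to 7.34 in all pluripotent arrays. The control shRNA and untransduced embryoid bodies thus lay below all 8 pluripotent arrays. A second DKK3 probe set stayed between 3.85 and 4.93, at or below the 32.6 percentile. SFRP4, DKK2 and DKK4 did not pass the filter and were tested only without it. SFRP4 lay between 3.58 and 4.06 and DKK2, which can also activate WNT signalling in some settings, between 3.89 and 4.73, neither above the 28.1 percentile of any array. DKK4, itself a WNT target in several tissues, lay between 3.81 and 5.47 and passed the 40th percentile on 1 array. Its levels of 5.06, 4.86 and 5.16 in control shRNA pluripotent cells were above the 4.12, 4.23 and 3.81 of untransduced ones, without overlap, at a brightness where transduced arrays were also higher as a whole (40th percentile at 5.38 to 5.59 on transduced and 5.26 to 5.39 on untransduced arrays). In the fit without the filter DKK4 passed in 3 comparisons, namely untransduced differentiation (0.45, adjusted p = 0.0075) and control shRNA minus untransduced in pluripotent cells (0.97, adjusted p = 1.3e-04) and embryoid bodies (0.56, adjusted p = 0.0022). SFRP4 and DKK2 passed in none of the 9 comparisons there.

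**Figure D1:**
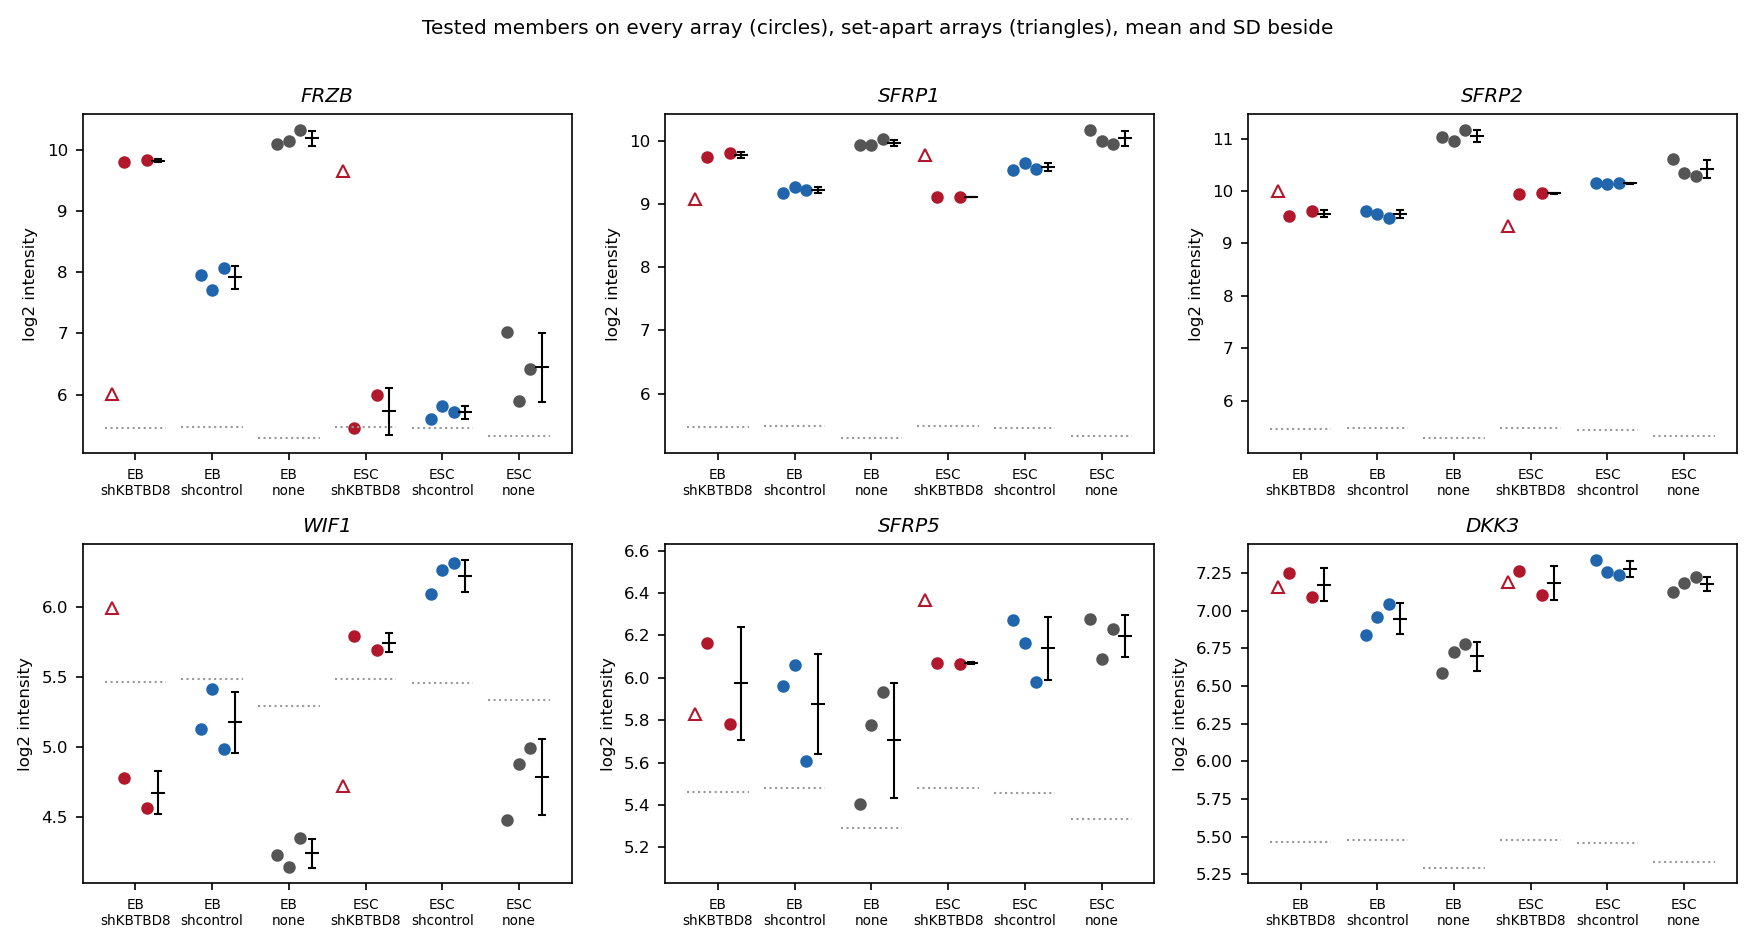
Log2 intensity of the 6 tested genes on each array (circles), by group, with embryoid bodies (EB) left of pluripotent cells (ESC). Black marks beside the circles are the mean and SD of the arrays in the fit, open triangles are the 2 arrays set apart, dotted lines are the mean 40th percentile of the arrays of a group, and each panel has its own scale. FRZB separates the states on all 16 arrays of the fit, and its control shRNA embryoid bodies sit at 7.72 to 8.08, below the other embryoid bodies of the fit.

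Differentiation raised FRZB under all 3 treatments, but moved SFRP1 and SFRP2 in directions that depended on the treatment. FRZB rose by 4.09 ± 0.25 (SE) with the KBTBD8 shRNA (17.0-fold, limma adjusted p = 3.8e-09), by 2.20 ± 0.21 with the control shRNA (4.61-fold, adjusted p = 2.6e-07) and by 3.74 ± 0.21 in untransduced cells (13.3-fold, adjusted p = 3.4e-10). SFRP1 rose by 0.67 ± 0.09 (SE) with the KBTBD8 shRNA (adjusted p = 3.2e-05), fell by 0.36 ± 0.08 with the control shRNA (adjusted p = 0.0010) and gave −0.07 ± 0.08 in untransduced cells (adjusted p = 0.46, 95% interval −0.23 to 0.09). SFRP2 fell by 0.38 ± 0.11 with the KBTBD8 shRNA (adjusted p = 0.011) and by 0.59 ± 0.09 with the control shRNA (adjusted p = 5.2e-05), whereas it rose by 0.63 ± 0.09 in untransduced cells (adjusted p = 2.0e-05). FRZB was thus the only one of these 3 family members that rose under every treatment.

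The other tested genes either fell with differentiation or did not pass the test. WIF1 gave −1.07 ± 0.16 with the KBTBD8 shRNA and −1.05 ± 0.13 with the control shRNA (adjusted p = 1.2e-04 and 1.3e-05 without the filter), and it fell by 0.54 ± 0.13 without transduction (adjusted p = 0.0025). All untransduced arrays lay at or below the 34.3 percentile for WIF1, under the intensity filter. DKK3 fell by 0.33 ± 0.08 with the control shRNA (adjusted p = 0.0037) and by 0.48 ± 0.08 in untransduced cells (adjusted p = 1.5e-04), and gave −0.01 ± 0.10 with the KBTBD8 shRNA (adjusted p = 0.95). The mean of both DKK3 probe sets gave −0.28 in untransduced cells (adjusted p = 0.034). SFRP5 fell by 0.49 ± 0.14 in untransduced cells (adjusted p = 0.0088), and gave −0.10 ± 0.18 with the KBTBD8 shRNA (adjusted p = 0.72) and −0.26 ± 0.14 with the control shRNA (adjusted p = 0.15).

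Of the 5 tested genes other than WIF1, 2 rose and 1 fell with the KBTBD8 shRNA, where 38.5% of all genes tested were called (17.3% higher and 21.1% lower). With the control shRNA 1 of these 5 rose and 3 fell, beside 48.3% of all genes (23.1% higher and 25.2% lower). In untransduced cells 2 of the 6 rose and 3 fell, WIF1 included, beside 52.2% (25.8% higher and 26.3% lower). The median difference of the 6, WIF1 included, was −0.05, −0.34 and −0.28 in the same order, beside 0.00, −0.02 and −0.04 over all genes. With all 18 arrays as labelled, none of the 6 passed under the KBTBD8 shRNA, where limma called 0 of all genes (0.00%, with 763 at an unadjusted p under 0.05); FRZB then gave 1.51 ± 0.95 (adjusted p = 0.79), SFRP1 0.22, SFRP2 −0.03 and WIF1 −0.29. With the control shRNA 2 of the 5 passed on 18 arrays (33.9% of all genes) and in untransduced cells 4 did (38.6%). The call of SFRP5 in untransduced cells was lost without embryoid body replicate 1 (−0.34, adjusted p = 0.058), and that of SFRP2 with the KBTBD8 shRNA without embryoid body replicate 1 (−0.33, adjusted p = 0.084) or pluripotent replicate 3 (−0.37, adjusted p = 0.060).

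**Figure D2:**
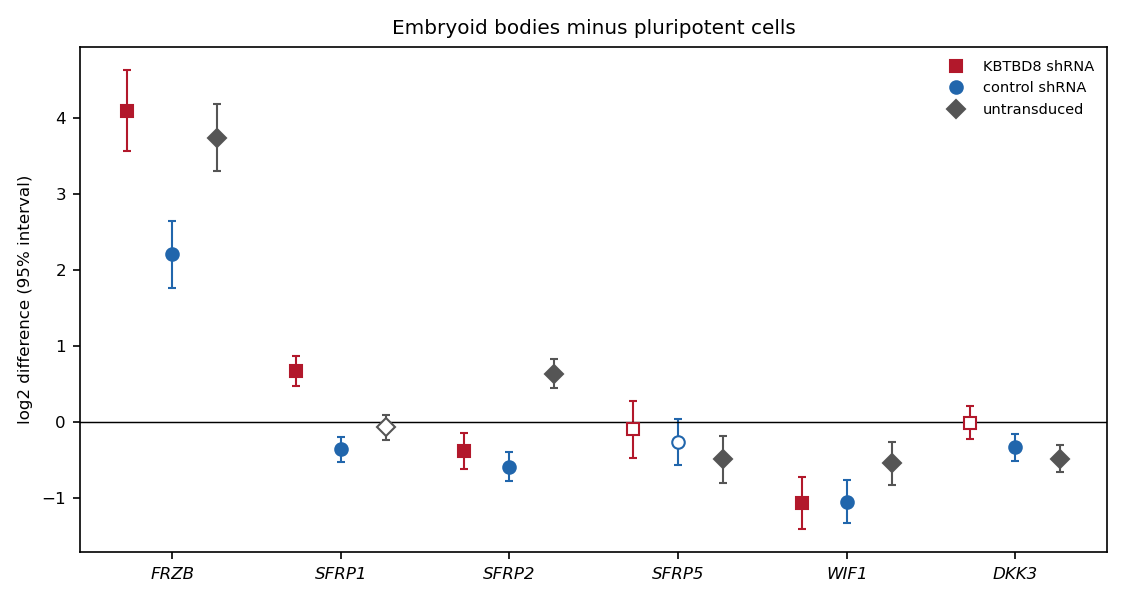
Log2 difference of embryoid bodies minus pluripotent cells for the 6 tested genes under each treatment, with 95% intervals from limma. Filled symbols passed an adjusted p of 0.05 and open ones did not. FRZB is above 2 under every treatment, SFRP1 lies on opposite sides of 0 under the 2 shRNAs, and SFRP2 is above 0 in untransduced cells only.

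Among other WNT pathway genes, WLS, which carries WNT proteins to the cell surface, and LEF1, a nuclear effector and WNT target, rose with differentiation under all treatments. WLS rose by 2.72 with the KBTBD8 shRNA, by 4.67 with the control shRNA and by 2.25 in untransduced cells, and LEF1 by 2.28, 3.65 and 3.47 in the same order. Among receptors the largest increase was that of FZD5 (2.46) with the KBTBD8 shRNA, FZD3 (1.49) with the control shRNA and ROR2 (2.12) in untransduced cells. Over 7 lists with 81 tested genes, 29 rose and 11 fell with the KBTBD8 shRNA (49.4% called), 33 rose and 7 fell with the control shRNA (49.4%), and 26 rose and 12 fell in untransduced cells (46.9%). Of all genes tested, 38.5%, 48.3% and 52.2% were called in the same order. The shares higher were 17.3%, 23.1% and 25.8%, and the shares lower 21.1%, 25.2% and 26.3%. Among the 7 other extracellular inhibitors tested, 4 rose and 2 fell with each shRNA and 3 rose and 1 fell without. The largest increase there was GPC3 (2.33), a glypican, with the KBTBD8 shRNA, DKK1 (3.52), a coreceptor antagonist, with the control shRNA, and GPC3 (1.64) in untransduced cells. R-spondins and their receptors, which enhance WNT signalling, showed 4, 5 and 3 increases among 7 genes in that order, and no decrease. Decreases included TCF7L1, a nuclear repressor, under all treatments (−0.73, −0.95 and −1.41) and ROR1, a receptor for WNT5A, with the KBTBD8 shRNA (−0.46) and in untransduced cells (−1.64).

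In embryoid bodies FRZB, SFRP1 and SFRP2 were lower with the control shRNA than without transduction, and WIF1 was higher. FRZB fell by 2.27 ± 0.21 (4.82-fold lower, adjusted p = 4.1e-07), SFRP2 by 1.49 ± 0.09 (2.81-fold lower, adjusted p = 3.9e-09) and SFRP1 by 0.75 ± 0.08 (1.68-fold lower, adjusted p = 1.6e-06). WIF1 rose by 0.93 ± 0.13 (1.91-fold, adjusted p = 4.1e-05) and DKK3 by 0.25 ± 0.08 (adjusted p = 0.024), while SFRP5 gave 0.17 ± 0.14 (adjusted p = 0.35). Every WIF1 value compared here lay at or below the 38.6 percentile of its array, under the intensity filter. Transduced arrays were also higher as a whole at that brightness, and the part of this in the WIF1 difference was not tested beyond quantile normalization. In all, 2 of the 6 rose and 3 fell, where 44.8% of all genes tested were called (24.6% higher and 20.2% lower). The median difference of the 6 was −0.29, beside 0.04 over all genes. DKK3 was not a stable call: it was lost without control shRNA replicate 2 (adjusted p = 0.062) or 3 (0.104) or untransduced replicate 1 (0.102) and after quantile normalization (0.16 log2, adjusted p = 0.16), and the mean of its 2 probe sets gave −0.01. FRZB kept its difference on 18 arrays with a wider error (−2.27 ± 0.95, adjusted p = 0.091), since the arrays set apart enter the shared spread, and 4 of the 6 passed there beside 27.1% of all genes.

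In pluripotent cells SFRP1 was again lower with the control shRNA than without transduction. WIF1 gave 1.44 ± 0.13 (2.71-fold, adjusted p = 1.1e-05 without the filter), and SFRP1 fell by 0.46 ± 0.08 (adjusted p = 5.6e-04). FRZB fell by 0.73 ± 0.21 (adjusted p = 0.015) and SFRP2 by 0.27 ± 0.09 (adjusted p = 0.035), whereas DKK3 (0.10 ± 0.08, adjusted p = 0.39) and SFRP5 (−0.06 ± 0.14, adjusted p = 0.79) did not pass. With 0 rises and 3 falls among the 5 genes other than WIF1, the share of all genes called was 29.1% (17.0% higher and 12.1% lower). The calls of FRZB and SFRP2 were not stable. Without untransduced replicate 1, FRZB gave −0.45 (adjusted p = 0.059) and SFRP2 −0.17 (adjusted p = 0.14). SFRP2 also lost its call without control shRNA replicate 1, 2 or 3 (adjusted p = 0.072, 0.083 and 0.072). SFRP2 lost it as well after quantile normalization (−0.21, adjusted p = 0.067), and with only the groups compared both SFRP2 (adjusted p = 0.11) and FRZB (0.051) missed the threshold. On 18 arrays none of the 5 passed, beside 12.1% of all genes.

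Other WNT pathway genes moved in the control shRNA embryoid bodies in both directions. Of 81 tested, 33 rose and 16 fell relative to untransduced embryoid bodies (60.5% called, against 44.8% of all genes). Among 13 WNT targets 10 rose and 2 fell, with AXIN2, a feedback inhibitor, at 1.80 and SP8 at −0.71. DKK1 rose by 4.51, WLS by 2.87 and RSPO3 by 2.09, while LGR5, an R-spondin receptor, fell by 2.04 and FZD5 by 1.89. DKK1 and the members FRZB, SFRP1 and SFRP2, all secreted inhibitors, therefore moved in opposite directions here. The members WIF1, which was dim, and DKK3, whose call was not stable, rose as DKK1 did. In pluripotent cells 13 rose and 5 fell (22.2%, below the 29.1% of all genes), with CER1, a secreted inhibitor of WNT, NODAL and BMP, at 1.08.

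**Figure D3:**
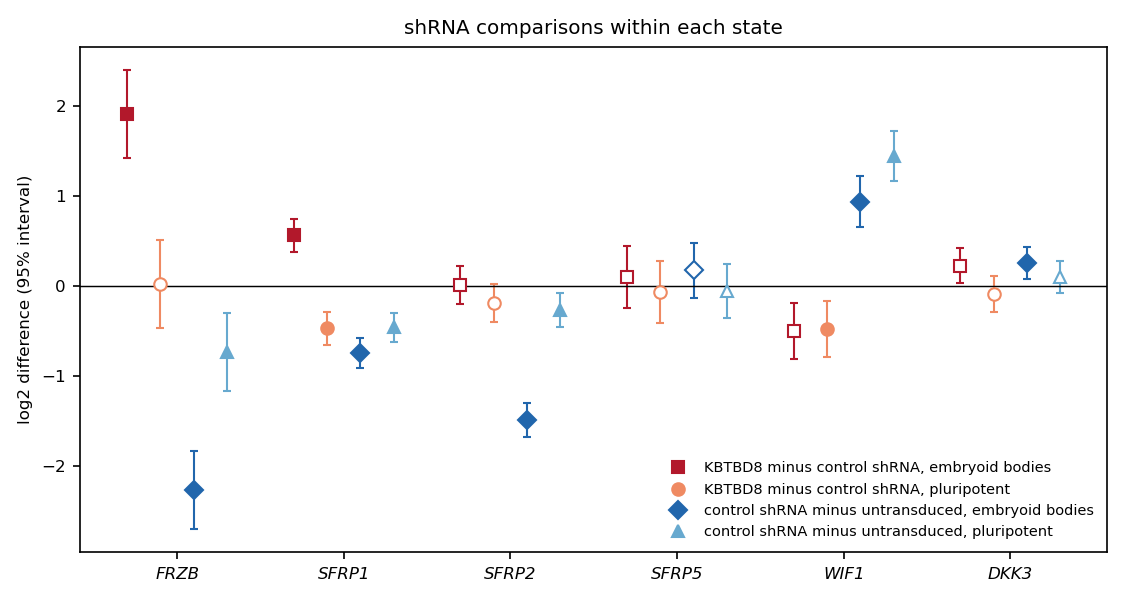
Log2 differences of the 6 tested genes between treatments within each state, KBTBD8 shRNA minus control shRNA and control shRNA minus untransduced, with 95% intervals from limma. Filled symbols passed an adjusted p of 0.05. In embryoid bodies FRZB and SFRP1 are above 0 in the first comparison and below 0 in the second, and the 2 comparisons share the control shRNA arrays.

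The KBTBD8 shRNA left FRZB and SFRP1 higher than the control shRNA in embryoid bodies. FRZB rose by 1.91 ± 0.23 (3.75-fold, adjusted p = 5.2e-05) and SFRP1 by 0.56 ± 0.09 (1.47-fold, adjusted p = 5.7e-04). SFRP2 gave 0.01 ± 0.10 (adjusted p = 0.99, 95% interval −0.20 to 0.22), so a difference between the 2 shRNAs larger than that interval was not seen for this gene. WIF1 (−0.50 ± 0.15, adjusted p = 0.059), DKK3 (0.22 ± 0.09, adjusted p = 0.23) and SFRP5 (0.10 ± 0.16, adjusted p = 0.88) did not pass. WIF1 did pass after quantile normalization (adjusted p = 0.037) and without control shRNA replicate 3 (adjusted p = 0.042) or untransduced pluripotent replicate 1 (0.019) or 3 (0.048). Thus 2 of the 6 rose and 0 fell, where 5.80% of all genes tested were called (2.84% higher and 2.96% lower). On 18 arrays as labelled none of the 6 passed (2.48% of all genes did), with FRZB at 0.64 ± 0.95 (adjusted p = 0.82) and SFRP1 at 0.33 ± 0.18 (adjusted p = 0.48).

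FRZB in embryoid bodies had the same order of groups as 10 forebrain and eye field markers. Their mean level was 8.37 to 8.60 in KBTBD8 shRNA embryoid bodies, 7.61 to 7.62 in control shRNA ones and 8.74 to 8.84 in untransduced ones, against 5.51 to 5.88 in all pluripotent arrays of the fit. The 10 neural crest markers ran the other way in embryoid bodies, at 7.16 to 7.28, 8.65 to 8.76 and 5.89 to 6.01 in the same order of treatments. Between the KBTBD8 and control shRNA, 7 forebrain markers rose and 2 fell, 0 crest markers rose and 8 fell, and 7 of 8 tested surface ectoderm markers rose. Of 10 markers of undifferentiated cells 4 rose and 0 fell. Of 9 endoderm and yolk sac markers 0 rose and 5 fell, and of 8 mesoderm markers 0 rose and 2 fell. Among all genes tested 5.80% were called there (2.84% higher and 2.96% lower). The part of these cell types in the level of FRZB was not tested. Within each state, WIF1 had the same order of groups as the 9 tested endoderm and yolk sac markers, whose mean in pluripotent cells was 5.49 to 5.50 with the KBTBD8 shRNA, 5.94 to 6.04 with the control shRNA and 5.16 to 5.25 without transduction. In embryoid bodies it was 5.32 to 5.62, 6.53 to 6.59 and 5.04 to 5.10 in that order, and the part of endoderm in the level of WIF1 was not tested either. The 8 mesoderm markers had that order of group means too, at 6.04 to 6.11, 6.43 to 6.45 and 5.28 to 5.39 in embryoid bodies and at 6.09 to 6.24, 6.09 to 6.33 and 5.82 to 5.99 in pluripotent cells, where the 2 shRNA groups overlapped.

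**Figure D4:**
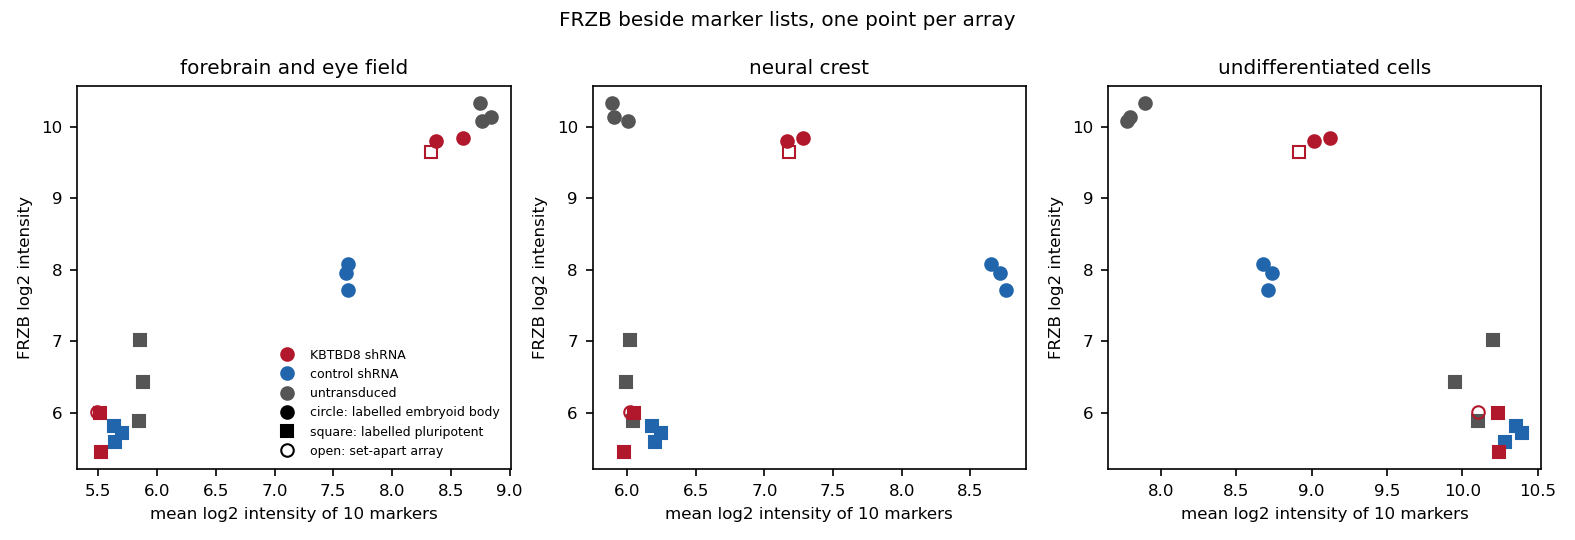
FRZB log2 intensity on each of the 18 arrays (vertical axis) beside the mean log2 intensity of 10 markers (horizontal axis) of forebrain and eye field, neural crest, and undifferentiated cells. Colours give the treatment, circles the embryoid body label, squares the pluripotent label, and open symbols the 2 arrays set apart, which lie with the other state. Control shRNA embryoid bodies have the lowest forebrain marker level (7.61 to 7.62) and the lowest FRZB (7.72 to 8.08) among embryoid bodies in the fit.

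In pluripotent cells the KBTBD8 shRNA lowered SFRP1, the reverse of embryoid bodies. SFRP1 fell by 0.47 ± 0.09 (1.39-fold lower, adjusted p = 0.0018) and WIF1 by 0.48 ± 0.15 (adjusted p = 0.040). FRZB gave 0.02 ± 0.23 (adjusted p = 0.97, 95% interval −0.47 to 0.51), SFRP2 −0.19 ± 0.10 (adjusted p = 0.23), DKK3 −0.09 ± 0.09 (adjusted p = 0.56) and SFRP5 −0.07 ± 0.16 (adjusted p = 0.83). In this comparison 0 of the 6 rose and 2 fell, beside 14.0% of all genes called (8.43% higher and 5.58% lower). The WIF1 call was lost without KBTBD8 shRNA replicate 1 (adjusted p = 0.111) or 3 (0.229), control shRNA replicate 2 (0.096) or 3 (0.105), or control shRNA embryoid body replicate 1 (0.051), with a replicate block (0.073), without the filter (0.058) and with an intensity trend (0.058). On 18 arrays none of the 6 passed (5.13% of all genes did), with SFRP1 at −0.25 (adjusted p = 0.51) and WIF1 at −0.82 (adjusted p = 0.16).

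Of the 81 other WNT pathway genes, 6 rose and 10 fell in embryoid bodies under this shRNA (19.8%, beside 5.80% of all genes). In pluripotent cells 3 rose and 4 fell (8.64%, beside 14.0% of all genes). In embryoid bodies FZD5 rose by 2.01 and LGR5 by 1.17, while DKK1 gave −2.20, WLS −1.92 and LEF1 −1.498, all past the threshold. Among 13 WNT targets 1 rose and 4 fell. In pluripotent cells DKK1 fell by 0.63 and FZD3 fell by 0.58, whereas FZD6 rose by 0.49.

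Tests of the difference between differentiation responses separated the Frizzled-related genes. The response of FRZB was 1.89 ± 0.33 larger with the KBTBD8 shRNA than with the control shRNA (adjusted p = 0.0016), and that of SFRP1 1.03 ± 0.12 larger (adjusted p = 6.5e-05). SFRP2 (0.20 ± 0.14, adjusted p = 0.43), DKK3 (0.32 ± 0.13, adjusted p = 0.15), SFRP5 (0.17 ± 0.23, adjusted p = 0.71) and WIF1 (−0.02 ± 0.21, adjusted p = 0.97 without the filter) did not pass. Of FRZB, SFRP1, SFRP2, SFRP5 and DKK3, 2 were called, both higher, where 9.87% of all genes were (3.74% higher and 6.12% lower). With all 18 arrays as labelled FRZB turned to −0.69 ± 1.35 (adjusted p = 0.83) and SFRP1 gave 0.57 ± 0.26 (adjusted p = 0.23), with 3.67% of all genes called, so both results need the arrays set apart to be left out.

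Between the control shRNA and no transduction, SFRP2 and FRZB differed in their response. That of SFRP2 was lower by 1.22 (−1.22 ± 0.13, adjusted p = 5.3e-06), which includes a change of sign, and that of FRZB was −1.53 ± 0.29 (adjusted p = 0.0016). This test shares the control shRNA arrays, with opposite sign, with the test between the shRNAs. SFRP1 (−0.29 ± 0.11, adjusted p = 0.084), WIF1 (−0.50 ± 0.19, adjusted p = 0.11 without the filter), SFRP5 (0.23 ± 0.20, adjusted p = 0.49) and DKK3 (0.15 ± 0.12, adjusted p = 0.43) did not pass. Among FRZB, SFRP1, SFRP2, SFRP5 and DKK3, 2 were thus called, both lower, where 16.9% of all genes were (8.26% higher and 8.61% lower). SFRP2 kept its call on 18 arrays (adjusted p = 0.0036) and FRZB did not (−1.53 ± 1.35, adjusted p = 0.64), where 5.24% of all genes were called. SFRP1 passed without untransduced pluripotent replicate 1 (adjusted p = 0.023) and with an intensity trend (0.036).

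Of all tested genes outside the 9, those whose levels followed FRZB most closely over the 16 arrays were PTN (Pearson's r = 0.984), FJX1 (0.983) and NNAT (0.981). For SFRP2 they were NUBP1 (0.960), PPP2R2B (0.954) and MACROH2A1 (0.953), and for WIF1 RDH13 (0.939), NUP85 (0.928) and STUB1 (0.927). These are descriptions over arrays that share 6 groups, given without a p. Among the WNT lists the closest gene was LGR4, an R-spondin receptor, for FRZB (0.970), FZD4 for SFRP2 (0.753) and CER1 for WIF1 (0.837).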

How the data were processed

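The deposited values are log2 intensities that the authors computed by GCRMA (version not given in the sources used here), per the submitters' processing notes. The base of the logarithm follows from the method and from the value range, and whether all 18 arrays were normalized together is not given in the sources used here. Of 33297 probe sets, 19460 named 1 gene, 1754 several and 12083 none. Symbols were updated through RefSeq GRCh38.p14 (31 unmatched). To be tested, a gene had to exceed its array's 40th percentile on 3 or more of 18 arrays, and 14209 genes with 6 of the 9 members did. limma 3.58.1 in R 4.3.3 fitted 6 group means on 16 arrays (10 residual degrees of freedom) and was tested on simulated data. Within each of 9 comparisons the Benjamini-Hochberg adjustment covered all tested genes, with 0.05 as the threshold, and "rose" or "fell" means past it. After ± stands the standard error for a difference and the SD for a group mean. The members, the 7 WNT lists, the 6 marker lists, the tests and the exclusion of 2 arrays were chosen with earlier results of these data known. The genes named from a WNT list are those with its largest increase or decrease past the threshold. For tested members whose group means span at least 1 log2 unit, the 3 most correlated genes are named. No 2 arrays held identical values. On arrays, precision is limited by their number. Figures used matplotlib 3.10.9 in Python 3.11.15.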

Additional observations from a re-analysis of the deposited data

Results flagged for a closer look

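The differentiation response of 3 Frizzled-related genes differed between treatments by a test of the difference itself. FRZB differed by 1.89 between the KBTBD8 and control shRNA and by −1.53 between the control shRNA and no transduction. SFRP1 differed by 1.03 in the first of these and SFRP2 by −1.22 in the second. Both tests use the control shRNA arrays, with opposite sign, so they are not independent. No cause was tested.

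The 2 arrays set apart from the fit also carried member levels above every control shRNA array of the state on their label. Under the pluripotent label these were FRZB (9.65, against 5.60 to 5.82 in control shRNA arrays), SFRP1 (9.78) and SFRP5 (6.37). Under the embryoid body label they were SFRP2 (10.00), WIF1 (5.99) and DKK3 (7.16). For FRZB, SFRP1, SFRP2 and WIF1 both arrays lay nearer to the mean of the other state under the same shRNA than to that of their own label, and for SFRP5 and DKK3 nearer to their own label. SFRP5 and DKK3 did not differ between the states under this shRNA, so they cannot place these arrays. Their pluripotent and embryoid body means were 6.07 and 5.97 for SFRP5 and 7.18 and 7.17 for DKK3. Groups of 3 or fewer arrays were not tested for single outlying values.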

How the results depend on the processing

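The counts here include WIF1. The members were recomputed under 8 alternatives and with each of the 16 arrays left out in turn, which makes 1 array stand for a KBTBD8 shRNA group whose spread is then taken from the other groups. The stricter filter tested 4 members. Without the filter all 9 were tested, and 6, 5 and 6 were called for untransduced differentiation and for the control shRNA in pluripotent cells and embryoid bodies, DKK4 among them each time. On 18 arrays as labelled, the number of members called was 0 for differentiation with the KBTBD8 shRNA, 3 with the control shRNA, 1 for the control shRNA in pluripotent cells, 0 for the KBTBD8 shRNA in either state, 1 for the difference between control shRNA and untransduced differentiation and 0 for that between the shRNAs. All genes called on 18 arrays were 0, 1713 (control shRNA, pluripotent), 3850 (embryoid bodies), 729 and 352 (KBTBD8 shRNA, pluripotent and embryoid bodies), 744 and 521 (differences of differentiation). Without KBTBD8 shRNA replicate 1 or 3 of a state, the genes called between shRNAs were 1112 and 724 in pluripotent cells and 496 and 451 in embryoid bodies, and for the difference of differentiation 877 without embryoid body replicate 1 and 738 without pluripotent replicate 3. Fitting only the groups compared gave 2 members and 2644 genes for the control shRNA in pluripotent cells. The stricter filter gave 3 members for untransduced differentiation. In pluripotent cells under the KBTBD8 shRNA, 1 member was called with the replicate block, without the filter, with the stricter filter and with the intensity trend, the lost one being WIF1 except under the stricter filter, where it was not tested. With 1 array left out, members called ranged from 4 to 5 (untransduced differentiation and control shRNA embryoid bodies), 3 to 4 (KBTBD8 shRNA differentiation), 2 to 4 (control shRNA, pluripotent), 1 to 2 and 2 to 3 (KBTBD8 shRNA, pluripotent and embryoid bodies) and 2 to 3 (control shRNA minus untransduced differentiation).

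Signs turned in called results only for FRZB in the difference between shRNAs on 18 arrays (−0.69) and for DKK3 in control shRNA embryoid bodies with the mean of 2 probe sets (−0.0144). Among differences that had not passed, that mean turned DKK3 to −0.0080 (control shRNA, pluripotent), 0.16 (KBTBD8 shRNA, pluripotent) and −0.0064 (control shRNA minus untransduced differentiation). With 18 arrays SFRP5 turned to 0.0294 (KBTBD8 shRNA, pluripotent), WIF1 to 0.76 (difference between shRNAs) and KBTBD8 to 0.0002 (KBTBD8 shRNA differentiation). The replicate block turned FRZB to −0.0666 (KBTBD8 shRNA, pluripotent) and SFRP2 to −0.0129 (embryoid bodies), and quantile normalization turned SFRP2 there to −0.0011. With 1 array left out, the KBTBD8 shRNA gave FRZB −0.25 to 0.29 in pluripotent cells, and SFRP2 −0.0409 to 0.0590, SFRP5 −0.0930 to 0.29 and KBTBD8 −0.15 to 0.15 in embryoid bodies. Its differentiation gave DKK3 −0.0909 to 0.0684 and SFRP5 −0.28 to 0.0942, and its difference from the control shRNA SFRP5 −0.0228 to 0.36 and WIF1 −0.13 to 0.0962. The control shRNA gave SFRP5 −0.13 to 0.0198 in pluripotent cells and KBTBD8 −0.0445 to 0.45 in embryoid bodies. The cause was not tested, except that on 18 arrays the errors are wider by construction.

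Replicate numbers were not taken to pair the samples, since not every same-numbered pair correlated above 0.1: deviations from the group means correlated at −0.38 to 0.43 (median 0.03). Among control shRNA pluripotent cells and both KBTBD8 shRNA groups, replicates 1 and 3 did correlate by number, at 0.32 to 0.43, and with control shRNA embryoid bodies they did so at −0.17 to 0.05. The replicate block changed no other member's call than that of WIF1 given above (−0.45, adjusted p = 0.073). Members near the 40th percentile are limited by signal over background.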

Other observations

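Over the 16 arrays the members formed no common pattern. FRZB ran opposite to WIF1 (Pearson's r = −0.81) and to DKK3 (−0.73), and SFRP1 and SFRP2 ran together (0.68). SFRP5 and DKK3 correlated at 0.73 and FRZB and SFRP2 at 0.25. The arrays share 6 groups, so these are descriptions without a p.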
